A study of Homo sapiens with 18 samples.

Results

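Messenger RNA of 10 glycolytic enzyme genes was followed in 18 RNA-seq libraries of 2 human multiple myeloma cell lines, KMS12-BM and JJN3. The 10 genes were HK1, HK2, GPI, PFKL, PFKM, PFKP, ALDOA, ALDOC, PKM and LDHA, chosen by symbol from the 57905 Ensembl gene rows counted in each library, and all 10 were found and passed the filter on low counts in every comparison. One drug was amiloride, a potassium-sparing diuretic that inhibits sodium channels and sodium/hydrogen exchange, and the other TG003, which inhibits CLK kinases, enzymes acting on splicing factors. The amiloride dose was 0.1 mM for KMS12-BM cells and 0.4 mM for JJN3 cells, the TG003 dose was 0.4 mM for each line, and exposure lasted 24 h. The controls were labelled as untreated with DMSO in parentheses, no duration was given for them, and they are called DMSO libraries here. Each of the 6 groups had 3 libraries. The labels do not say whether these came from separate cultures, so the tests measure the spread between libraries, which may be technical.

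Glycolysis splits glucose into pyruvate in the cytosol and yields ATP without oxygen. Hexokinases trap glucose in the cell by phosphorylation, an isomerase turns glucose phosphate into fructose phosphate, phosphofructokinase commits it to the pathway, aldolase cleaves the product into triose phosphates, and pyruvate kinase forms pyruvate. Lactate dehydrogenase A reduces pyruvate to lactate and so returns NAD+ to the pathway. Many of these genes are known targets of the hypoxia-inducible factors and of MYC, and tumour cells are known for high glycolytic flux.

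Reads in genes numbered 23707695 to 50570234 per library, and 18943 to 21893 genes had at least 1 read. The placement of reads set the 6 TG003 libraries apart from the remaining 12. Processed pseudogenes, the genomic copies of spliced messengers, held 0.106% to 0.130% of reads in TG003 libraries and 4.49% to 5.62% in amiloride and DMSO libraries. Reads placed in multiple places made up 7.79% to 9.125% of all records in TG003 libraries and 13.3% to 17.4% in the others. Reads in no annotated gene made up 6.42% to 8.17% with TG003 and 11.4% to 13.55% in the others. Every TG003 comparison below carries these differences, for genes with and without pseudogenes. Mitochondrially encoded genes held 0.265% to 0.448% of reads in amiloride-treated KMS12-BM against 3.86% to 4.25% with DMSO, and 0.709% to 1.03% in amiloride-treated JJN3 against 2.06% to 2.61% with DMSO. The plasma cell markers IRF4 (at least 436 CPM, counts scaled to a common library size) and XBP1 (at least 129 CPM) were found in all libraries. SDC1 reached at most 14.0 CPM in KMS12-BM and CD38 at most 6.83 CPM in JJN3, and SLAMF7 was at most 2.79 CPM in both lines. JCHAIN lay at 0.731 to 2.94 CPM in KMS12-BM and at 1120 to 3526 CPM in JJN3, and this 1 gene weighs heavily in the JJN3 sums below. Of 14 markers of other cells, EPCAM lay at 102 to 189 CPM in KMS12-BM and at 19.8 CPM or more in JJN3, PAX5 at 36.5 to 69.9 CPM in KMS12-BM, and HBB at 21.3 to 65.8 CPM in JJN3. KRT8 lay at 5.58 to 30.7 CPM in KMS12-BM. The 9 plasma cell markers summed to 2825 to 3147 CPM with amiloride, 905 to 961 CPM with TG003 and 2074 to 2160 CPM with DMSO in KMS12-BM. In JJN3 the sums were 4243 to 4922 CPM with amiloride, 2203 to 2437 CPM with TG003 and 4454 to 4803 CPM with DMSO. The 14 markers of other cells summed to 203 to 264 CPM with amiloride, 173 to 187 CPM with TG003 and 186 to 210 CPM with DMSO in KMS12-BM, and to 74.7 to 103 CPM with amiloride, 45.0 to 51.9 CPM with TG003 and 80.7 to 92.6 CPM with DMSO in JJN3. The part of these differences in the results below was not tested.

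The promoters of 3 of the genes are shown because the genes bracket the responses described below. ALDOC fell most with amiloride in both lines, LDHA fell by nearly the same factor in both, and PFKM differed most between the lines. Each line gives the 250 bases before the annotated start, 5′ to 3′ on the gene's strand, from RefSeq. Capitals mark ACGTG and GCGTG on either strand, the core letters of the hypoxia response element.
ALDOC (GRCh38.p14, chr17:28576896-28577145, minus strand): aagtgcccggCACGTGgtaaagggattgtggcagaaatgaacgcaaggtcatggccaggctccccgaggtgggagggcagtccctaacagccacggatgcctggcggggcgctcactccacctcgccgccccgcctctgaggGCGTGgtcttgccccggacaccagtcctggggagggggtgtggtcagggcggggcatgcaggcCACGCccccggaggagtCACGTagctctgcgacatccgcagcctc
LDHA (GRCh38.p14, chr11:18394313-18394562, plus strand): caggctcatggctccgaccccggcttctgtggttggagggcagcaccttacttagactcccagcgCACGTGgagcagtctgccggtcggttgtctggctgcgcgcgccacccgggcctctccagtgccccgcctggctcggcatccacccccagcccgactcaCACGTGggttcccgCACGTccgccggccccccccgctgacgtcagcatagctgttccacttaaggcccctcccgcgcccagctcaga
PFKM (GRCh38.p14, chr12:48105623-48105872, plus strand): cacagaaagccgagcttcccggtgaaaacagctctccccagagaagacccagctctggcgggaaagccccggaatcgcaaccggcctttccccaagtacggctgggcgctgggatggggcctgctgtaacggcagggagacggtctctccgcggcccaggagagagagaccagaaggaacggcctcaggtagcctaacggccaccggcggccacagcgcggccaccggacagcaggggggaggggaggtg
ACGTG occurred in the 250 upstream bases of 5 of the 10 genes (HK2, GPI, ALDOA, ALDOC and LDHA), against 18.5% of 35114 RefSeq promoters, and GCGTG in 3 of 10 (HK2, PFKL and ALDOC), against 32.2%. CACGTG, the E-box, which contains ACGTG on both strands, was held by ALDOC and LDHA, against 6.35% of promoters. HK1, PFKM, PFKP and PKM held none of the motifs in this window. These are matches of letters at 1 start per gene, not measured binding, and other starts of these genes were not searched.

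In DMSO libraries the 10 transcripts covered a wide range of levels. Per kilobase of the canonical transcript, ALDOA stood at 1109 ± 130 CPM per kb in KMS12-BM (SD, n = 3) and at 3081 ± 162 CPM per kb in JJN3, which ranked 39 and 8 from the top among 12988 coding genes. PKM followed with 773 ± 14.2 CPM per kb in KMS12-BM and 1423 ± 52.4 CPM per kb in JJN3, and LDHA with 674 ± 39.2 CPM per kb in KMS12-BM and 1320 ± 118 CPM per kb in JJN3. In JJN3 the spreads of PKM and LDHA overlapped, so their order there is not resolved. ALDOA, PKM and LDHA thus lay above the hexokinase and phosphofructokinase genes at the top of the pathway, whose levels ran from 2.09 ± 0.0623 CPM per kb for HK1 in JJN3 to 87.0 ± 12.0 CPM per kb for PFKL in JJN3.

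KMS12-BM had less transcript than JJN3 for most of the 10 genes before treatment. Against JJN3, 8 genes were lower in KMS12-BM, 1 was higher and 1 was not called, where 39.3% of all 17772 genes tested were called lower and 36.8% higher. The median log2 difference of the 10 was -0.93, beside -0.04 over all genes tested. PFKP, the platelet-type phosphofructokinase (chr10:3108525-3179910 in hg19, plus strand), had 38.5, 48.0 and 29.0 CPM in KMS12-BM against 129, 134 and 127 CPM in JJN3. That was a log2 difference of -1.76 ± 0.19 (adjusted p = 3.11e-07), the largest deficit among the 10. HK1, the housekeeping hexokinase (chr10:71029740-71161640, plus strand), ran the other way. It had 98.1, 114 and 109 CPM in KMS12-BM against 7.28, 7.67 and 7.66 CPM in JJN3, a log2 difference of 3.83 ± 0.11 (adjusted p = 2.14e-17), and in JJN3 it ranked 9281 of 12988. PFKM averaged 125 ± 0.844 CPM in KMS12-BM and 121 ± 19.8 CPM in JJN3 and was not called (0.05 ± 0.10, adjusted p = 0.674).

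**Figure D1:**
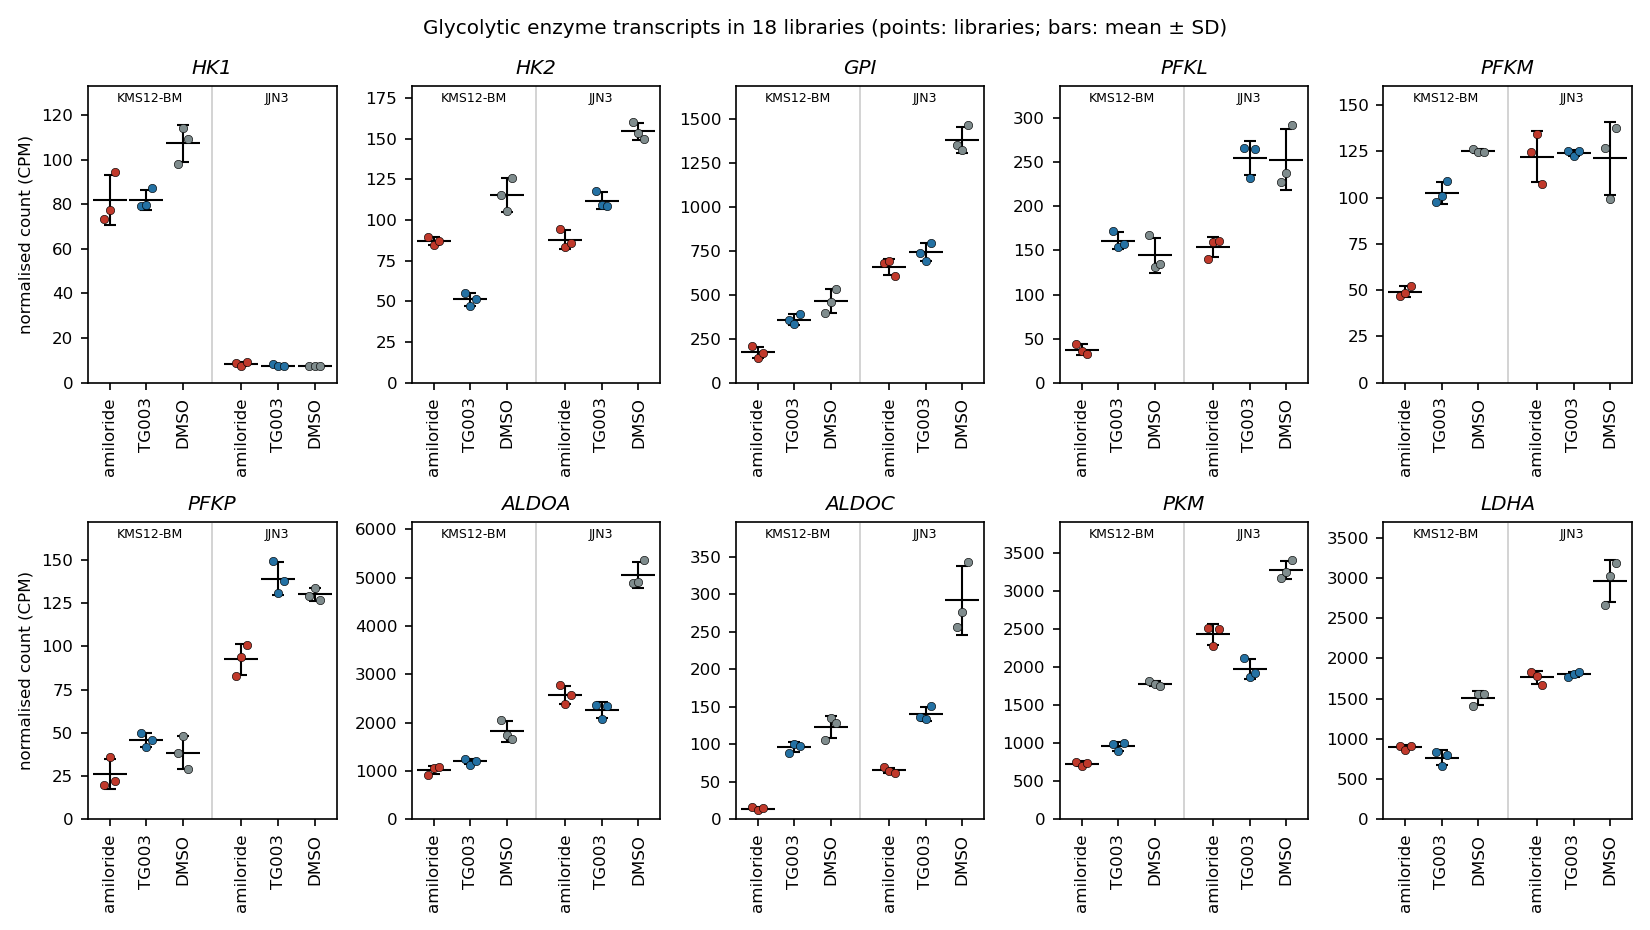
Normalised counts (CPM, linear axes from 0) of the 10 genes in all 18 libraries, grouped on the horizontal axis by drug within KMS12-BM and within JJN3, with points for libraries and bars for mean and SD of 3. In both lines the 3 amiloride points of ALDOC, GPI, PKM, LDHA, HK2, PFKL and ALDOA lie below all 3 DMSO points, while HK1 and PFKM in JJN3 overlap.

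Amiloride lowered most of these transcripts in both lines. In KMS12-BM 9 of the 10 genes were lower than with DMSO and 1, PFKP, was not called, where 35.2% of 15765 genes tested were called lower. In JJN3 8 were lower and 2, HK1 and PFKM, were not called, where 23.9% of 15704 genes were called lower. None of the 10 was called higher in either line, where 33.5% of genes were called higher in KMS12-BM and 19.7% in JJN3. The median log2 fold change of the 10 was -1.06 in KMS12-BM and -0.74 in JJN3, beside -0.02 and -0.03 over all genes tested. Together the 10 genes took 0.311% ± 0.00651 of scaled reads with amiloride and 0.623% ± 0.00953 with DMSO in KMS12-BM (SD, n = 3), and 0.796% ± 0.0330 with amiloride and 1.36% ± 0.0767 with DMSO in JJN3. In these bulk samples fewer cells expressing a transcript and less transcript per cell cannot be told apart.

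The inducible hexokinase fell with amiloride in both lines. HK2, which binds the outer mitochondrial membrane (chr2:75061254-75120486, plus strand), had 89.5, 84.8 and 87.0 CPM with amiloride against 116, 105 and 126 CPM with DMSO in KMS12-BM, and 94.3, 83.3 and 86.1 CPM with amiloride against 160, 154 and 150 CPM with DMSO in JJN3. The amiloride libraries lay below the DMSO libraries in each line, with log2 fold changes of -0.41 ± 0.09 in KMS12-BM (adjusted p = 0.00114) and -0.82 ± 0.07 in JJN3 (adjusted p = 6.81e-06). HK1 had 73.5, 77.2 and 94.4 CPM with amiloride in KMS12-BM, all below its DMSO libraries (-0.39 ± 0.10, adjusted p = 0.00434). In JJN3 it had 8.67, 7.53 and 9.08 CPM with amiloride, overlapping its DMSO libraries (0.15 ± 0.11, adjusted p = 0.297).

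GPI, the glucose phosphate isomerase (chr19:34850385-34893318, plus strand), fell in both lines. It had 206, 143 and 168 CPM with amiloride against 399, 461 and 532 CPM with DMSO in KMS12-BM (-1.43 ± 0.14, adjusted p = 5.15e-06). In JJN3 it had 679, 692 and 605 CPM with amiloride against 1349, 1325 and 1467 CPM with DMSO (-1.07 ± 0.08, adjusted p = 2.04e-06). The groups did not overlap in either line.

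Of the 3 phosphofructokinase genes, PFKL fell in both lines, PFKM in KMS12-BM and PFKP in JJN3. PFKL, the liver-type subunit (chr21:45719934-45747259, plus strand), had 44.3, 36.1 and 32.0 CPM with amiloride against 167, 131 and 135 CPM with DMSO in KMS12-BM, a log2 fold change of -1.95 ± 0.13 (adjusted p = 2.82e-07). In JJN3 it had 140, 160 and 161 CPM with amiloride against 228, 238 and 293 CPM with DMSO (-0.73 ± 0.10, adjusted p = 0.000113). PFKM, the muscle-type subunit (chr12:48498922-48540187, plus strand), had 46.8, 48.5 and 52.3 CPM with amiloride against 126, 125 and 125 CPM with DMSO in KMS12-BM (-1.35 ± 0.07, adjusted p = 7.20e-08). In JJN3 it had 125, 134 and 107 CPM with amiloride against 127, 99.3 and 138 CPM with DMSO (0.00 ± 0.11, adjusted p = 0.985). PFKP was lower in JJN3, where the amiloride libraries spanned 83.1 to 101 CPM and the DMSO libraries 127 to 134 CPM (-0.49 ± 0.08, adjusted p = 0.000406). In KMS12-BM PFKP had 19.6, 35.9 and 22.4 CPM with amiloride against 38.5, 48.0 and 29.0 CPM with DMSO, ranges that overlapped (-0.56 ± 0.23, adjusted p = 0.0535). Without amiloride library 2 the PFKP difference in KMS12-BM was -0.87 and passed the threshold (adjusted p = 0.00229), and without DMSO library 3 it was -0.74 (adjusted p = 0.0165). It also passed with DESeq2 (-0.55, adjusted p = 0.0187), with upper-quartile factors (-0.64, adjusted p = 0.0298), with a filter of 1 CPM in 3 libraries (-0.57, adjusted p = 0.0441) and with the replicate block (-0.57, adjusted p = 0.0376). PFKM overlaps SENP1 on the opposite strand, which had 931 to 6370 reads per library. The labels name a strand-specific library protocol, and the strand setting of the counting is not given in the sources used here, so reads of the 2 genes may not be fully separated.

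ALDOC, known as the brain-type aldolase (chr17:26900133-26903966, minus strand), fell most of the 10 genes in both lines. It had 15.7, 11.7 and 14.4 CPM with amiloride against 106, 135 and 129 CPM with DMSO in KMS12-BM. That is 8.83-fold lower (-3.14 ± 0.13, adjusted p = 1.51e-08). In JJN3 ALDOC had 69.1, 64.6 and 61.5 CPM with amiloride against 257, 276 and 344 CPM with DMSO, 4.51-fold lower (-2.17 ± 0.11, adjusted p = 1.60e-07). Its fold change stood at the 1.64 percentile of all genes tested in KMS12-BM and at the 0.338 percentile in JJN3. ALDOA, the ubiquitous aldolase (chr16:30075485-30081778, plus strand), averaged 1018 ± 88.8 CPM with amiloride and 1819 ± 213 CPM with DMSO in KMS12-BM (-0.84 ± 0.10, adjusted p = 1.27e-05), and 2573 ± 192 CPM with amiloride and 5052 ± 265 CPM with DMSO in JJN3 (-0.98 ± 0.09, adjusted p = 5.82e-06).

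At the end of the pathway, PKM, which encodes the pyruvate kinases PKM1 and PKM2 by alternative splicing (chr15:72491370-72524160, minus strand), was counted over both forms. It had 759, 700 and 739 CPM with amiloride against 1817, 1776 and 1752 CPM with DMSO in KMS12-BM (-1.28 ± 0.07, adjusted p = 7.20e-08). In JJN3 it had 2520, 2272 and 2508 CPM with amiloride against 3174, 3255 and 3412 CPM with DMSO (-0.44 ± 0.08, adjusted p = 0.000794). LDHA (chr11:18416107-18429972, plus strand) had 911, 866 and 905 CPM with amiloride against 1409, 1560 and 1562 CPM with DMSO in KMS12-BM (-0.76 ± 0.09, adjusted p = 1.54e-05). In JJN3 it had 1830, 1784 and 1672 CPM with amiloride against 2665, 3029 and 3181 CPM with DMSO (-0.75 ± 0.08, adjusted p = 1.47e-05).

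Over coding genes, the fold changes with amiloride in KMS12-BM moved with base composition. Among coding genes in 5 classes of rising GC content, the median log2 fold change with amiloride was 0.38, 0.25, 0.01, -0.29 and -0.60 in KMS12-BM, and went no further than 0.04 and -0.14 in JJN3. The 10 genes had a median GC of 54.9% beside 48.4% over coding genes, and 9 of the 10, all but LDHA (41.8%), were above that median. With the GC trend removed, HK1 (-0.12, adjusted p = 0.367) and ALDOA (-0.25, adjusted p = 0.0575) were no longer called in KMS12-BM and PFKL stood at -1.24 (adjusted p = 2.24e-08), leaving 7 of the 10 genes lower. With the replicate block added to that removal, ALDOA was called (-0.26, adjusted p = 0.0410) and HK1 was not (-0.12, adjusted p = 0.203). ALDOC was at -2.82 and LDHA at -1.07 after that removal. In JJN3 the same 8 genes were lower with and without it.

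**Figure D2:**
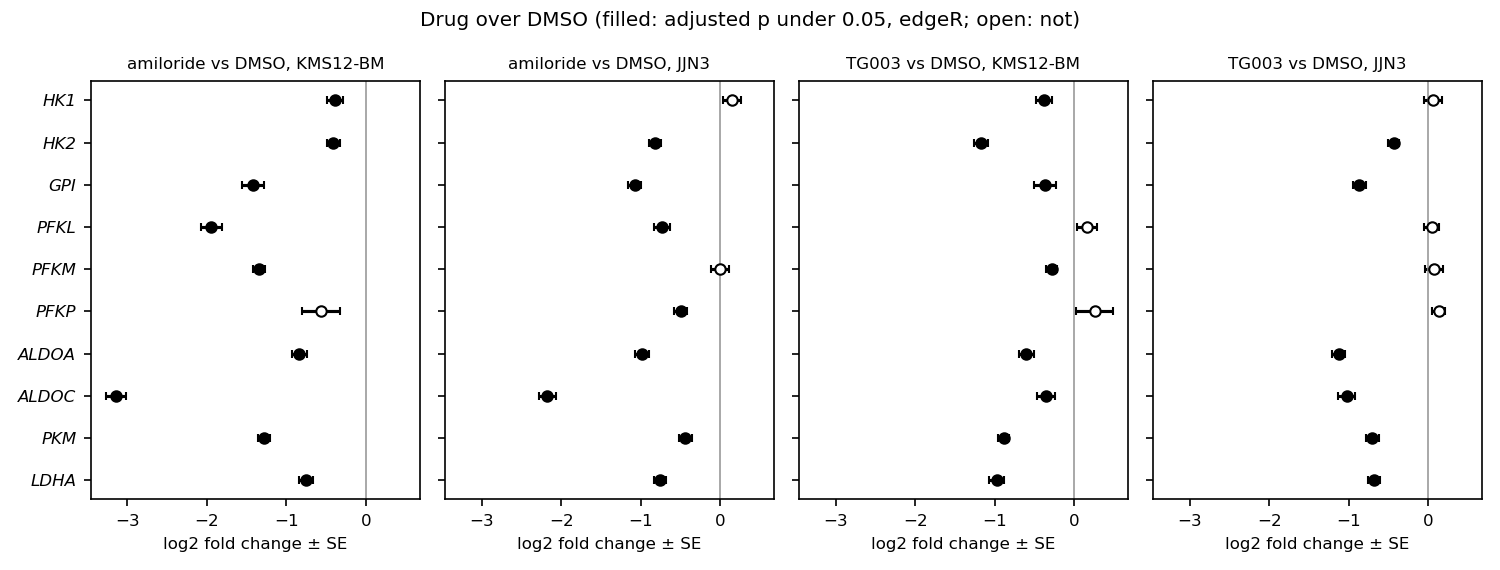
Log2 fold changes of drug over DMSO with standard errors (horizontal axis) for the 10 genes (rows), in 4 panels by drug and line, filled where the adjusted p was under 0.05. With amiloride 9 genes in KMS12-BM and 8 in JJN3 are filled and lie left of 0, and with TG003 8 genes in KMS12-BM and 6 in JJN3.

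Amiloride and DMSO differed by different amounts in the 2 lines for 6 of the 10 genes in the test of the difference itself, with 5 lower and 1 higher in KMS12-BM relative to JJN3. Of 17772 genes tested, 21.6% were called lower and 21.6% higher. PFKM (-1.36 ± 0.14, adjusted p = 1.90e-07), PFKL (-1.23 ± 0.17, adjusted p = 7.36e-06), ALDOC (-0.98 ± 0.17, adjusted p = 7.12e-05), PKM (-0.85 ± 0.10, adjusted p = 8.98e-07) and HK1 (-0.55 ± 0.15, adjusted p = 0.00441) were the genes lower in KMS12-BM. Of these, PFKL, ALDOC and PKM fell in both lines and further in KMS12-BM. PFKM and HK1 fell in KMS12-BM and were not called against DMSO in JJN3. HK2 fell further in JJN3 (0.40 ± 0.11, adjusted p = 0.00524). For LDHA the difference between the lines was -0.01 ± 0.12 (adjusted p = 1), for ALDOA 0.14 ± 0.13 (adjusted p = 0.424), for GPI -0.36 ± 0.16 (adjusted p = 0.0837) and for PFKP -0.07 ± 0.26 (adjusted p = 0.886). GPI was called without amiloride library 1 of KMS12-BM (-0.51, adjusted p = 0.00827), without DMSO library 1 of KMS12-BM (-0.46, adjusted p = 0.0251) and with no filter (-0.37, adjusted p = 0.0172). The amiloride dose differed between the lines, so line and dose cannot be told apart. With the GC trend removed, PFKL (-0.74) and PKM (-0.56) remained called, HK1 did not (-0.33, adjusted p = 0.0855), and ALDOA became called as falling less in KMS12-BM (0.57, adjusted p = 0.000890).

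TG003 lowered the hexokinase HK2, GPI, both aldolase genes, PKM and LDHA in both lines. In KMS12-BM 8 of the 10 genes were lower than with DMSO, where 31.7% of genes tested were called lower, and PFKL and PFKP were not called. In JJN3 6 were lower, where 32.1% of genes were, and HK1, PFKL, PFKM and PFKP were not called. None was called higher, where 26.9% of genes were higher in KMS12-BM and 26.2% in JJN3. The median log2 fold change of the 10 was -0.37 in KMS12-BM and -0.56 in JJN3, beside -0.03 and -0.04 over all genes tested. The TG003 and amiloride comparisons share the same DMSO libraries, so the 2 sets of values are given side by side and not as independent results.

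HK2 responded most to TG003 in KMS12-BM. It had 55.0, 47.1 and 51.6 CPM with TG003, all below the DMSO libraries (-1.17 ± 0.09, adjusted p = 4.38e-07). In JJN3 HK2 had 118, 109 and 109 CPM with TG003, also below the DMSO libraries, at -0.44 ± 0.07 (adjusted p = 0.000237). HK1 averaged 82.0 ± 4.42 CPM with TG003 and 107 ± 8.24 CPM with DMSO in KMS12-BM (-0.38 ± 0.10, adjusted p = 0.00676), and 7.69 ± 0.659 CPM with TG003 and 7.54 ± 0.225 CPM with DMSO in JJN3 (0.06 ± 0.12, adjusted p = 0.690).

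GPI and both aldolase genes showed their larger TG003 fall in JJN3. ALDOA had 2367, 2076 and 2345 CPM with TG003 against 4883, 4917 and 5358 CPM with DMSO in JJN3, a log2 fold change of -1.13 ± 0.09 (adjusted p = 1.39e-07), and -0.60 ± 0.10 in KMS12-BM (adjusted p = 0.000266). ALDOC had 137, 133 and 151 CPM with TG003 in JJN3, below its DMSO libraries (-1.03 ± 0.10, adjusted p = 1.93e-06). In KMS12-BM ALDOC had 88.5, 101 and 98.4 CPM with TG003 (-0.35 ± 0.12, adjusted p = 0.0223). GPI was at -0.87 ± 0.08 in JJN3 (adjusted p = 1.02e-06) and at -0.36 ± 0.14 in KMS12-BM (adjusted p = 0.0415). The KMS12-BM calls of GPI and ALDOC rested on single libraries. Without DMSO library 2 GPI was at -0.37 (adjusted p = 0.0778) and ALDOC at -0.29 (adjusted p = 0.0879), and without DMSO library 3 at -0.26 (adjusted p = 0.146) and -0.33 (adjusted p = 0.0601). Without TG003 library 1 they were at -0.35 (adjusted p = 0.0967) and -0.29 (adjusted p = 0.0849), and without TG003 library 2 GPI was at -0.31 (adjusted p = 0.131). With upper-quartile factors GPI was at -0.29 (adjusted p = 0.116) and ALDOC at -0.28 (adjusted p = 0.0700).

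Of the phosphofructokinase genes only PFKM in KMS12-BM was called with TG003 (-0.28 ± 0.07, adjusted p = 0.00573), with 97.8, 101 and 109 CPM against 126, 125 and 125 CPM with DMSO. PFKL was at 0.16 ± 0.13 in KMS12-BM (adjusted p = 0.292) and at 0.04 ± 0.10 in JJN3 (adjusted p = 0.743). PFKP was at 0.26 ± 0.23 in KMS12-BM (adjusted p = 0.364) and at 0.13 ± 0.08 in JJN3 (adjusted p = 0.188). With the GC trend removed, PFKL was called higher in KMS12-BM (0.29, adjusted p = 0.00296) and ALDOC there was not called (-0.29, adjusted p = 0.0532).

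PKM and LDHA fell with TG003 in both lines. PKM had 992, 894 and 1001 CPM with TG003 in KMS12-BM (-0.88 ± 0.07, adjusted p = 7.96e-07) and 2122, 1871 and 1925 CPM in JJN3 (-0.70 ± 0.08, adjusted p = 6.79e-06). LDHA had 833, 659 and 803 CPM with TG003 in KMS12-BM (-0.98 ± 0.09, adjusted p = 3.25e-06) and 1767, 1808 and 1829 CPM in JJN3 (-0.68 ± 0.08, adjusted p = 6.69e-06). All of these libraries lay below the DMSO libraries of the same line.

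The lines differed in the response to TG003, at 1 dose in both, for 4 of the 10 genes, where 6.80% of 17772 genes were called lower and 7.13% higher. HK2 fell further in KMS12-BM (-0.71 ± 0.11, adjusted p = 0.000290). ALDOC (0.70 ± 0.16, adjusted p = 0.00603), ALDOA (0.55 ± 0.13, adjusted p = 0.00572) and GPI (0.53 ± 0.16, adjusted p = 0.0350) fell further in JJN3. The call of GPI was lost without each of 8 libraries in turn (log2 0.43 to 0.56), and it was also lost with the GC trend removed (0.49, adjusted p = 0.0533) and with scaling that leaves out the 10 most abundant and the mitochondrial genes (0.48, adjusted p = 0.0607). HK1, at -0.41 ± 0.15 (adjusted p = 0.0707), was called under the same 2 settings (-0.45, adjusted p = 0.0430, and -0.46, adjusted p = 0.0373) and without DMSO library 1 of KMS12-BM (-0.47, adjusted p = 0.0449).

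Reads on pseudogenes could be counted for 4 of the 10 genes. HK2 has 1, ALDOA 2, PKM 5 and LDHA 6 annotated pseudogenes by symbol, and none was paired with the other 6 genes. For LDHA, reads on its pseudogenes were 1.13% to 1.30% of the gene and pseudogene reads with TG003, 11.9% to 13.1% with amiloride and 12.5% to 13.1% with DMSO in KMS12-BM. In JJN3 they were 0% to 0.00517% with TG003, 6.28% to 8.80% with amiloride and 7.01% to 8.31% with DMSO. One copy, LDHAP4, held at most 420 reads in a TG003 library and up to 11250 in the other libraries. For HK2 the shares were at most 0.0474% with TG003, against 6.74% to 10.6% in amiloride and DMSO libraries of both lines. For PKM they were at most 0.0427% with TG003, 0.743% to 1.70% with amiloride and 0.381% to 1.46% with DMSO, and for ALDOA at most 0.153% in any library.

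Adding the pseudogene reads to their genes left the direction and the call of all 10 genes against DMSO as they were, for both drugs and both lines. With TG003 it moved LDHA to -1.16 in KMS12-BM and -0.81 in JJN3, and HK2 to -1.29 in KMS12-BM and -0.58 in JJN3. Between the lines, LDHA then was called as falling further with TG003 in KMS12-BM (-0.40, adjusted p = 0.0202), and GPI was not called (0.46, adjusted p = 0.0711). HK1 was then called as lower in KMS12-BM relative to JJN3 (-0.48, adjusted p = 0.0271), though in JJN3 it was not called with TG003 against DMSO. HK1 and GPI have no paired pseudogene. Further genes without one moved the same way, PFKL from 0.15 to 0.08, PFKM from -0.32 to -0.39, PFKP from 0.15 to 0.09 and ALDOC from 0.70 to 0.63. This setting also removes the pseudogene rows and recomputes the scaling for all genes. For LDHA, the parts of that scaling and of the added reads were not told apart. PGAM1, phosphoglycerate mutase, was at 1.30 ± 0.07 in KMS12-BM and 1.32 ± 0.07 in JJN3 with TG003, while its intronless copy PGAM4 had 0 to 0.127 CPM with TG003 against 12.4 to 13.2 CPM with DMSO in KMS12-BM, and 0.0681 to 0.258 CPM with TG003 against 22.5 to 25.5 CPM with DMSO in JJN3. Whether reads of PGAM1 were counted on PGAM4 in the other libraries was not tested.

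**Figure D3:**
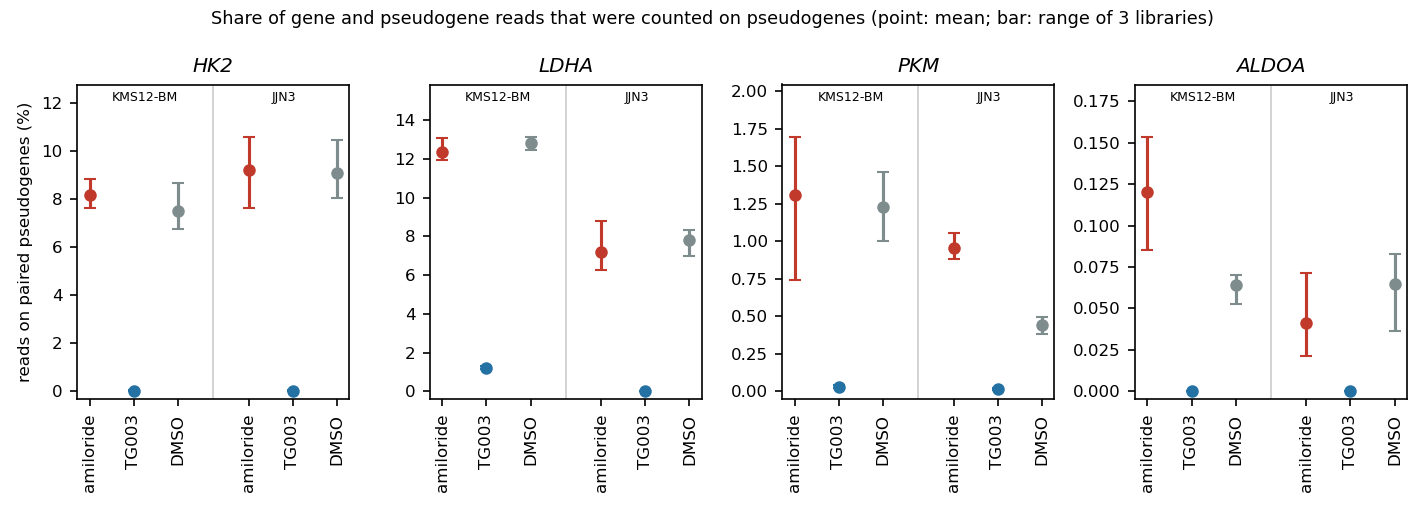
Share of gene plus pseudogene reads that was counted on annotated pseudogenes (percent, vertical axis) for the 4 genes with such copies, by drug within each line, with points for the mean and bars for the range of 3 libraries. All TG003 points lie at or near 0 except LDHA in KMS12-BM at 1.19%, while HK2 and LDHA lie between 7.17% and 12.8% in the amiloride and DMSO groups.

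Amiloride and TG003 were compared directly in JJN3, where both were given at 0.4 mM. With amiloride 5 of the 10 genes were lower than with TG003, 1 was higher and 4 were not called, where 28.9% of genes tested were called lower and 33.3% higher. ALDOC (-1.15 ± 0.10, adjusted p = 6.13e-07), PFKL (-0.77 ± 0.10, adjusted p = 2.05e-05), PFKP (-0.62 ± 0.08, adjusted p = 2.07e-05) and HK2 (-0.38 ± 0.07, adjusted p = 0.000567) were lower with amiloride without overlap of the libraries. GPI was called with overlapping ranges, 605 to 692 CPM with amiloride and 691 to 794 CPM with TG003 (-0.21 ± 0.08, adjusted p = 0.0387), a call lost without amiloride library 3 (adjusted p = 0.128), TG003 library 1 (adjusted p = 0.0746) or TG003 library 3 (adjusted p = 0.159). It was also lost with DESeq2 size factors (-0.19, adjusted p = 0.0538), with no filter (-0.18, adjusted p = 0.0970) and with pseudogene reads added (-0.19, adjusted p = 0.0530). PKM was higher with amiloride, at 2272 to 2520 CPM against 1871 to 2122 CPM with TG003 (0.27 ± 0.08, adjusted p = 0.0103). LDHA was at -0.07 ± 0.08 (adjusted p = 0.459). ALDOA was at 0.15 ± 0.09 (adjusted p = 0.148), with all amiloride libraries above the TG003 libraries, and was called with the GC trend removed (0.19, adjusted p = 0.0191). Adding pseudogene reads moved HK2 to -0.22 (adjusted p = 0.0134), and LDHA to 0.06. In KMS12-BM the doses of the 2 drugs differed, 0.1 mM amiloride and 0.4 mM TG003, and no comparison was made. There ALDOC averaged 13.9 ± 2.08 CPM with amiloride and 96.0 ± 6.60 CPM with TG003, PFKL 37.5 ± 6.25 CPM with amiloride and 161 ± 9.62 CPM with TG003, and HK2 87.1 ± 2.38 CPM with amiloride and 51.2 ± 3.96 CPM with TG003.

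Within their families, ALDOC and PFKL made up a smaller share in every amiloride library than in any DMSO library of the same line. Counts were divided by canonical transcript length, and with 3 against 3 libraries the two-sided exact permutation test cannot give a p below 0.1. ALDOC made up 1.39% ± 0.311 of aldolase transcripts (ALDOA plus ALDOC) with amiloride and 6.54% ± 1.36 with DMSO in KMS12-BM (SD, n = 3), and 2.52% ± 0.153 with amiloride and 5.55% ± 0.538 with DMSO in JJN3 (exact permutation p = 0.1 in each line). With TG003 the ALDOC share was 7.59% ± 0.817 in KMS12-BM (exact permutation p = 0.4) and 5.96% ± 0.326 in JJN3 (exact permutation p = 0.2). PFKL made up 33.4% ± 5.95 of the 3 phosphofructokinase transcripts with amiloride and 47.3% ± 3.69 with DMSO in KMS12-BM, and 41.4% ± 1.53 with amiloride and 49.4% ± 2.77 with DMSO in JJN3 (exact permutation p = 0.1 in each line). Of the partners of PFKL, PFKP was at 25.3% ± 6.71 with amiloride and 14.0% ± 3.27 with DMSO in KMS12-BM, and PFKM was at 31.0% ± 3.50 with amiloride and 22.3% ± 2.51 with DMSO in JJN3 (exact permutation p = 0.1 for each). PFKM in KMS12-BM was at 41.3% ± 4.58 with amiloride and 38.8% ± 2.60 with DMSO (exact permutation p = 0.5). PFKP in JJN3 was at 27.6% ± 1.98 with amiloride and 28.4% ± 3.06 with DMSO (exact permutation p = 0.9). With TG003 PFKM was at 31.3% ± 2.20 in KMS12-BM (exact permutation p = 0.1). For each other phosphofructokinase share with TG003 the exact permutation p was 0.2 or more. The shares were computed without removing the GC trend. With that trend removed in KMS12-BM, the log2 fold changes with amiloride were -1.244 for PFKL, -1.255 for PFKM and -0.13 for PFKP. There PFKL thus fell no further than PFKM, while ALDOC (-2.82) still fell further than ALDOA (-0.25).

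HK2 made up 40.7% ± 3.39 of HK1 plus HK2 transcripts with amiloride, 28.6% ± 1.92 with TG003 and 40.9% ± 3.28 with DMSO in KMS12-BM. In JJN3 it made up 87.0% ± 0.971 with amiloride, 90.3% ± 0.330 with TG003 and 92.9% ± 0.406 with DMSO. Only the amiloride libraries of KMS12-BM overlapped the DMSO libraries in this share (exact permutation p = 1, against 0.1 for the other 3 comparisons with DMSO).

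**Figure D4:**
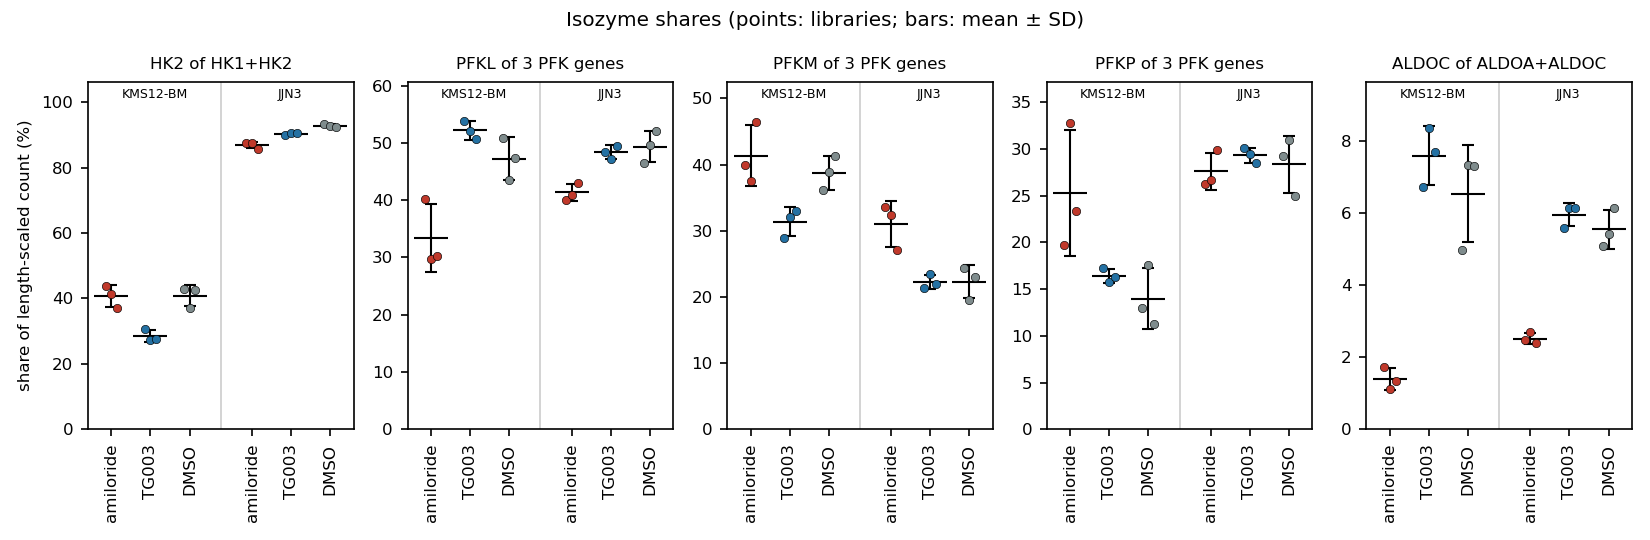
Share of length-scaled counts (percent, vertical axes from 0) held by HK2 among HK1 and HK2, by PFKL, PFKM and PFKP among the 3 phosphofructokinase genes, and by ALDOC among ALDOA and ALDOC, by drug within each line, with points for libraries and bars for mean and SD. The amiloride points of PFKL and ALDOC lie below the DMSO points in both lines.

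Neighbouring enzymes of the pathway fell with the 10 genes under amiloride. Of 20 other genes of glycolytic enzymes, 11 were tested in KMS12-BM and all 11 were lower (median log2 fold change -0.93), where 35.2% of all genes tested were called lower. That share takes no account of the GC trend in KMS12-BM described above, so the part of the trend in these falls is not known from it. In JJN3 13 were tested, 9 were lower, 0 higher and 4 not called (median -0.67), where 23.9% of all genes tested were called lower. ENO2, the neuronal enolase, was at -1.55 ± 0.11 in KMS12-BM and -1.45 ± 0.11 in JJN3, PGAM1, phosphoglycerate mutase, at -0.97 ± 0.07 in KMS12-BM and -0.98 ± 0.07 in JJN3, and GAPDH, the triose phosphate dehydrogenase, at -0.66 ± 0.11 in KMS12-BM and -0.97 ± 0.09 in JJN3. With TG003 6 of 11 were lower and 2 higher in KMS12-BM, and 7 of 13 lower and 2 higher in JJN3, the 2 including PGAM1 in each line. Over all genes tested, 31.7% were called lower and 26.9% higher with TG003 in KMS12-BM, and 32.1% lower and 26.2% higher in JJN3. The list holds PGAM4, the intronless copy of PGAM1, whose levels with TG003 were near 0 as given above. With amiloride PGAM4 was at -1.01 ± 0.17 in KMS12-BM and -0.92 ± 0.13 in JJN3, close to PGAM1. The 2 genes may therefore not be separate entries in these counts.

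Genes that set the level of the fructose bisphosphate that activates phosphofructokinase moved in both directions with amiloride, with 2 of 4 tested lower and 2 higher in KMS12-BM, and 2 of 5 lower and 1 higher in JJN3. Over all genes tested, 35.2% were lower and 33.5% higher in KMS12-BM, and 23.9% lower and 19.7% higher in JJN3. With so few genes these counts cannot be told apart from those shares. PFKFB4, which makes and degrades that metabolite, had 0.384, 0.386 and 0.336 CPM with amiloride against 16.2, 22.1 and 31.6 CPM with DMSO in KMS12-BM (-5.96 ± 0.28). PFKFB4 had 11.9, 12.8 and 12.6 CPM with amiloride against 136, 145 and 107 CPM with DMSO in JJN3 (-3.38 ± 0.23). PFKFB3, another maker of it, fell, with a log2 change of -0.86 ± 0.09 in KMS12-BM and -0.84 ± 0.08 in JJN3, while TIGAR, which degrades the metabolite, rose, at 1.51 ± 0.16 in KMS12-BM and 0.85 ± 0.10 in JJN3. PFKFB2, a further maker, rose in KMS12-BM, averaging 46.7 ± 2.44 CPM with amiloride and 24.8 ± 2.14 CPM with DMSO (0.91 ± 0.10), and was at 0.03 ± 0.12 in JJN3, not called. With TG003 PFKFB4 was at -1.74 ± 0.20 in KMS12-BM and -2.01 ± 0.21 in JJN3.

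For the lists that follow, the shares over all genes tested with amiloride were 35.2% lower and 33.5% higher in KMS12-BM, and 23.9% lower and 19.7% higher in JJN3. For these lists too, the shares take no account of the GC trend in KMS12-BM. Of the glucose and lactate transporters, 6 of 8 tested were lower in KMS12-BM and 3 of 7 in JJN3, with 0 higher in both. SLC16A3, a lactate exporter, was at -1.92 ± 0.19 in KMS12-BM and -0.53 ± 0.09 in JJN3, and SLC2A1, the main glucose importer, at -0.17 ± 0.07 in KMS12-BM and -0.54 ± 0.12 in JJN3. Of the genes for pyruvate entry, 9 of 11 were lower and 2 higher in KMS12-BM, and 3 of 12 were lower and 0 higher in JJN3, where the share lower is near that over all genes. The 3 in JJN3 were PDK1 (-2.19 ± 0.10), PDK2 (-0.76 ± 0.23) and PDK3 (-1.47 ± 0.12), kinases that switch off pyruvate dehydrogenase. PDK2 was scarce in JJN3, at 0.562 to 0.854 CPM with amiloride and 1.015 to 1.21 CPM with DMSO. In KMS12-BM the dehydrogenase subunit genes PDHA1 (-0.37 ± 0.13), PDHB (-1.39 ± 0.11) and DLAT (-0.61 ± 0.09) were lower. The same 3 kinase genes were lower in KMS12-BM too, PDK1 (-1.09 ± 0.11), PDK2 (-1.24 ± 0.14) and PDK3 (-1.22 ± 0.14). The 2 genes that were higher there were PDHX, another component of the complex (0.84 ± 0.13), and PDP1, a phosphatase that switches the complex on (0.36 ± 0.08).

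In the pentose phosphate pathway 4 of 7 genes were lower and 1 higher in KMS12-BM, and 2 of 7 lower and 1 higher in JJN3, near the shares over all genes in JJN3, with the rise that of RPE, ribulose phosphate epimerase, in both (0.89 ± 0.09 in KMS12-BM and 0.54 ± 0.08 in JJN3). In gluconeogenesis 3 of 4 tested were lower in KMS12-BM and 1 of 3 in JJN3, PCK2, the mitochondrial carboxykinase, being lower in both. Of the transcription factor genes known to act on glycolytic genes, 6 were tested, with 1 lower and 3 higher in KMS12-BM and 1 lower and 2 higher in JJN3. HIF1A rose in both lines (1.61 ± 0.10 in KMS12-BM and 0.49 ± 0.07 in JJN3) and MYC fell in both (-1.08 ± 0.13 in KMS12-BM and -0.63 ± 0.07 in JJN3). With TG003 MYC fell as well, at -1.01 ± 0.13 in KMS12-BM and -0.46 ± 0.07 in JJN3, while HIF1A was at -0.06 ± 0.10 in KMS12-BM, not called, and at 0.19 ± 0.07 in JJN3, called higher.

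**Figure D5:**
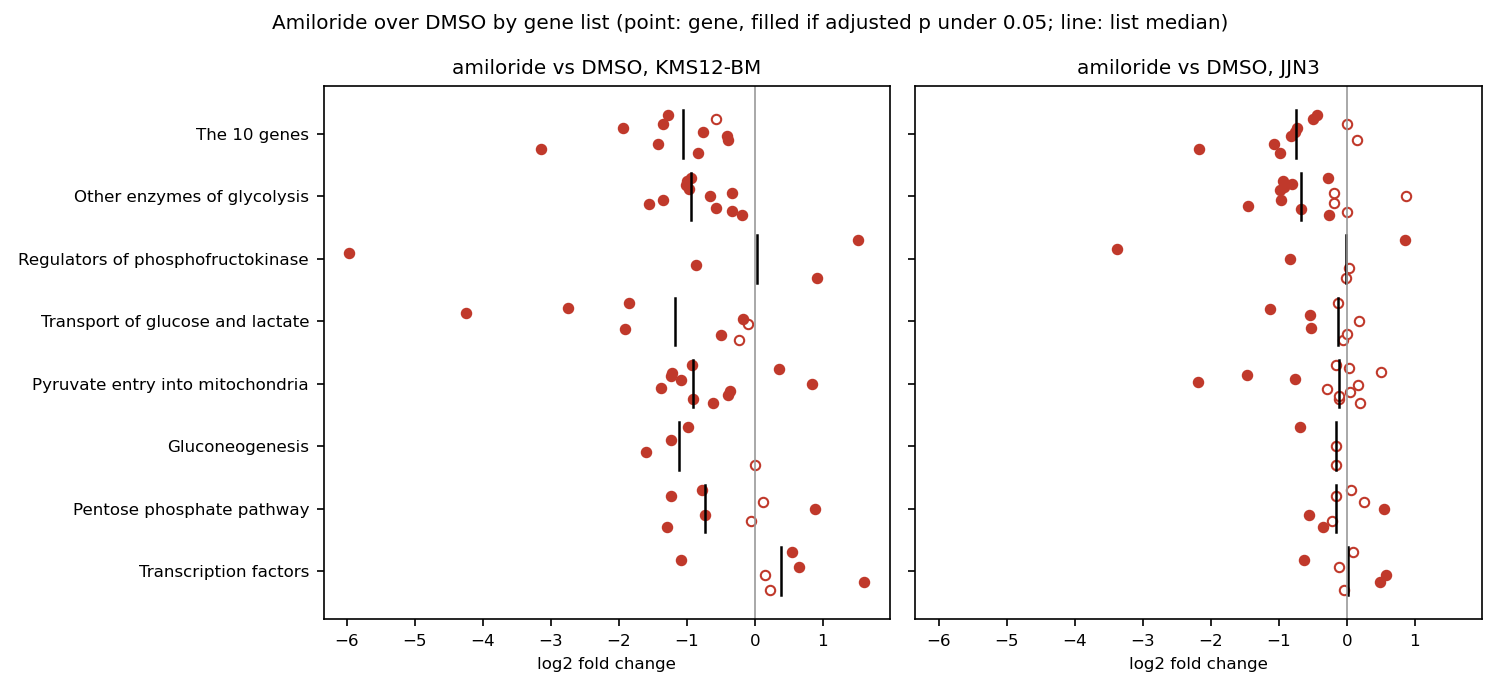
Log2 fold changes of amiloride over DMSO (horizontal axis) in KMS12-BM and JJN3 for the 10 genes and 7 neighbouring gene lists (rows), with a point for each gene tested, filled where the adjusted p was under 0.05, and a line at each list's median. The medians of the 10 genes (-1.06 and -0.74) and of the other glycolytic enzymes (-0.93 and -0.67) lie below 0 in both lines, and the leftmost point in each panel is PFKFB4.

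Among the 10 genes, HK2 and LDHA had the most similar profiles, with a root-mean-square difference of 0.21 on the log2 scale over the 18 libraries, each line centred on its DMSO mean. Outside the 10, the coding genes closest to the mean profile of the 10 were KAT14 (0.12), SCAMP5 (0.13) and DHRS13 (0.13), where the median over 9965 genes was 0.74. Closest to ALDOC were ADA, adenosine deaminase (0.34), SUSD3 (0.40) and CDHR1 (0.40), where the median was 1.66. The points share libraries, depth and scaling, and the values describe likeness only.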

How the data were processed

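Per the submitters' processing notes, cutadapt 1.4, TopHat2 2.0.11, HTSeq 0.6.1p1, DESeq2 1.12.4 and the build hg19 were used. For the strand setting and annotation of the counting, the sources used here give nothing. The deposited files hold whole-number read counts per Ensembl gene, 1 file per library, made by the authors. HTSeq summary rows were left out. They held 17.52% to 18.95% of all records in TG003 libraries and 28.0% to 31.2% in amiloride and DMSO libraries. The authors' normalized tables were not used here. Symbols and hg19 coordinates came from the GENCODE annotation at hand, which gave a symbol to 43521 of 57905 identifiers.

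Counts were tested with edgeR 4.0.16 in R 4.3.3 (TMM scaling, filterByExpr with a minimum count of 10 and a total of 15, robust quasi-likelihood F tests, Benjamini-Hochberg adjustment over all genes tested, threshold 0.05). Adjusted p are from edgeR, except the value given for PFKP in KMS12-BM with DESeq2. Within-line tests used a fit of that line's 9 libraries, and the line and interaction tests used 1 fit of all 18. The value after ± is the SD for levels and, for log2 fold changes, the standard error, taken as the size of the change divided by the square root of F, an approximation. CPM use the scaling of all 18 libraries, which differs from that within a line by at most 0.04 on the log2 scale. Reads carry no molecular identifiers, so counts are not independent molecules. The fits were tested on simulated counts. Recovery was judged on well-counted genes only, after a first version over all genes missed its target for the smaller decreases, among genes of few reads. Libraries of 1 group differed by 9.27 to 33.2 chi-square units per gene, so none was a duplicate.

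The 10 genes, the gene lists and the tests were chosen with earlier results of these data known. All 10 genes are named in every comparison, and any gene of a list may be named. The genes of similar profile are the 3 coding genes with the smallest root-mean-square difference in log2 CPM (prior count 2, a mean of at least 5 CPM). Alternatives were DESeq2 (1.42.0) and its size factors, upper-quartile factors, scaling without the 10 most abundant and the mitochondrial genes, testing every gene with a read, requiring 1 CPM in 3 libraries, limma (3.58.1) voom, a replicate block, fitting only the groups compared, pseudogene counts added to their genes, removal of the GC trend, and each library left out. Same-numbered library sets correlated by -0.07 to 0.15 over 3 sets. All 3 pairs exceeded 0.1 only for TG003 and DMSO in JJN3 (0.106, 0.116 and 0.103), which meets the rule used for paired samples, and there the replicate block changed no call of the 10 genes. Elsewhere that rule was not met, and whether same-numbered libraries share more than a number is not known. In KMS12-BM the correlations were 0.038 to 0.15 for TG003 and DMSO. For amiloride and DMSO in that line they were 0.059 to 0.11, and there the replicate block added the call of PFKP.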

Additional observations from a re-analysis of the deposited data

Results flagged for a closer look

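For 10 results, the response to a drug differed between KMS12-BM and JJN3 in the test of the difference itself (edgeR, 3 libraries per group). Each value is the log2 response in KMS12-BM minus that in JJN3. For amiloride, whose dose was lower in KMS12-BM, these were PFKM at -1.36, PFKL at -1.23, ALDOC at -0.98, PKM at -0.85, HK1 at -0.55 and HK2 at 0.40. PFKM had the largest of these differences, at -1.35 in KMS12-BM and at 0.00 in JJN3, but its reads may not be fully separated from those of SENP1. The call of HK1 was lost with the GC trend removed (adjusted p = 0.0855). For TG003, at 0.4 mM in both lines, they were HK2 at -0.71, ALDOC at 0.70, ALDOA at 0.55 and GPI at 0.53. The call of GPI was lost in 11 of 23 alternatives. HK2 and ALDOC differed in both responses, each in opposite directions. HK2 fell further in JJN3 with amiloride and further in KMS12-BM with TG003, and ALDOC fell further in KMS12-BM with amiloride and further in JJN3 with TG003. These 2 tests share the DMSO libraries. Groups of 3 libraries are too small for a test of single libraries that stand apart.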

How the results depend on the processing

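All 154 alternative counts of called genes among the 10 stayed within 1.5 times the main count, from 7 to 10 for amiloride in KMS12-BM, 8 for amiloride and 6 for TG003 in JJN3, 6 to 8 for TG003 in KMS12-BM, 5 to 7 for amiloride against TG003, 9 between the lines, and 6 to 7 and 3 to 5 for the line differences in response. Of the counts for the 7 neighbouring lists, 1024 stayed within that limit and 54 did not. Among those printed above, the limit was passed by pyruvate entry with amiloride in JJN3, with 6 genes called without a filter and 5 with the GC trend removed and the replicate block, against 3. Of the alternative fold changes of the 10 genes, 1465 kept direction and side of the threshold, 33 lost the call, 21 gained one and 21 changed sign, and none of those 21 had been called. With the library-number set as replicate block, 10 genes were called for amiloride in KMS12-BM in place of 9, PFKP being added (-0.57, adjusted p = 0.0376), and the counts of the other 7 comparisons did not move. LDHA changed sign for amiloride against TG003 in JJN3 with pseudogene counts added (0.058). PFKP did so for the line difference with amiloride with the GC trend removed (0.25), also with the replicate block (0.24).

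Leaving out 1 library at a time turned the sign of some log2 values that had not been called. For the line difference with amiloride, PFKP ran from -0.39 to 0.12 and LDHA from -0.065 to 0.059, and for that with TG003 PFKP ran from -0.020 to 0.34. With TG003 in JJN3, PFKL ran from -0.024 to 0.16, PFKM from -0.065 to 0.17 and HK1 from -0.016 to 0.098. PFKM ran from -0.13 to 0.10 with amiloride in JJN3, from -0.13 to 0.020 for amiloride against TG003 and from -0.080 to 0.15 between the lines. The difference in the HK2 share in JJN3 was -4.09 points with amiloride and -1.78 points with TG003 without scaling by length, and -3.21 points with TG003 with pseudogenes added, against -5.93 and -2.61 points in the main shares. The first of these settings leaves out the division by canonical length, 5626 bases for HK2 and 3602 for HK1. The second adds the reads of 1 pseudogene to HK2 and none to HK1. These changes act on the share by the way it is computed. Depth limits HK1 in JJN3 most, with 183 to 388 reads per library.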
